A study of Mus musculus with 11 samples.

Results

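A set of 10 genes that link the metabolite itaconate to the antioxidant transcription factor NRF2 was followed in microglia, the brain's resident macrophages, cultured from adult mice. They are Acod1, Slc13a3, Slc7a11, Hmox1, Nqo1, Gclm, Gclc, Txnrd1, Srxn1 and Nfe2l2. They were taken by gene symbol from the deposited expression table, except Acod1, which was found by its identifier ENSMUSG00000022126 because the table lists it under the older symbol Irg1. All 10 of these genes, out of 34745 in the table, passed the filter on low values. The cells were prepared from cerebrum, at 6 to 8 weeks of age, of the strain C57BL/6. All groups, the untreated one included, grew for 10 to 14 days in medium supplemented with M-CSF (10 ng/ml) and TGF-beta1 (5 ng/ml). The 4 groups were untreated Control cells (n = 3 libraries), cells given Pam3CSK4 at 100 ng/ml for 24 h (n = 2), cells given IFN-gamma at 20 ng/ml for 24 h (n = 3), and cells given Pam3CSK4 first and IFN-gamma afterwards, each for 24 h (the combined group, n = 3). The labels do not say when cells given Pam3CSK4 alone were harvested or whether the agonist was removed before IFN-gamma, so in values that set the combined group against Pam3CSK4 alone, and in the interaction, IFN-gamma and time since the agonist cannot be told apart. Pam3CSK4 is a synthetic lipopeptide that activates the receptor TLR2, and IFN-gamma is a cytokine that activates macrophages. The study asked how TLR2 activation alters the transcriptome of IFN-gamma-treated microglia. The labels do not say whether the libraries of a group came from separate cultures or animals, so the p-values measure the spread between these libraries. For the combined group's replicates 2 and 3, 1 label field ends the agonist's name in another digit, and the sample titles, which give Pam3CSK4, were followed.

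Acod1 (aconitate decarboxylase) makes itaconate from the citric acid cycle intermediate cis-aconitate and is one of the most strongly induced genes of activated macrophages. Itaconate slows succinate dehydrogenase, and together with its derivatives it can modify KEAP1, the adaptor that otherwise marks NRF2 for destruction. NRF2, the product of Nfe2l2, is controlled largely through the stability of its protein, and once stable it pairs with small MAF proteins at antioxidant response elements. Its target genes include the cystine importer Slc7a11, both subunits of the enzyme that starts glutathione synthesis (Gclc and Gclm), the heme-degrading enzyme Hmox1, the quinone reductase Nqo1, thioredoxin reductase Txnrd1 and sulfiredoxin Srxn1. Slc13a3 encodes a sodium-coupled transporter of dicarboxylates such as succinate, and itaconate is among its known substrates.

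Library totals ran from 15033702 to 20321017 counts, and 15730 to 18185 genes had at least 1 count. All 11 genes of a microglia and macrophage marker list (among them Cx3cr1, Csf1r, P2ry12 and Tmem119) reached 1 FPKM (counts scaled by gene length and library total) in every library, as the label of the cells states. Their summed level lay between 7051 and 10255 FPKM in Control, 8810 and 9508 in IFN-gamma, 5461 and 5735 in Pam3CSK4, and 4936 and 5230 in the combined group. By transcripts of mural cells and fibroblasts 3 libraries stood apart, namely replicate 3 of Control, replicate 1 of IFN-gamma and replicate 3 of the combined group, called stromal-positive here. At least 1 FPKM was reached there by 10, 10 and 7 of the 13 listed markers, against 1 or 2 in each of the other libraries. Col1a1, for example, was at 430, 11.4 and 3.26 FPKM there and at most 0.139 elsewhere. Not all listed markers set these libraries apart. Rgs5, Pdgfra and Lum stayed below 1 FPKM in every library, and Cspg4 was above 1 FPKM in every library. The summed level of that list ranged from 31.7 to 2375 FPKM in Control, 54.3 to 63.5 in Pam3CSK4, 17.4 to 136 in IFN-gamma and 18.3 to 70.8 in the combined group. In bulk RNA, fewer cells of a type and less RNA per cell cannot be told apart. Member results and the list counts that move most with these 3 stromal-positive libraries are given below with and without them.

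Because NRF2 works through short DNA elements, the stretches just upstream of the members' start sites were read from RefSeq's promoter windows (assembly GRCm38.p6), which held 8 of the 10 genes in 10 windows, 3 of them for Txnrd1. Windows of 250 bases upstream were searched on both strands, and bases that GENCODE M21 places in an exon are left out of the stretches below. Capitals mark the antioxidant response core TGACNNNGC in the first 4, the AP-1 type motif TGAGTCA in Srxn1 and the amino acid response motif TGATGNAA in Slc7a11, on either strand. These 6 windows are shown because they are the members' windows that hold any of these 3 motifs.
Slc13a3, chr2:165473231-165473447, minus strand: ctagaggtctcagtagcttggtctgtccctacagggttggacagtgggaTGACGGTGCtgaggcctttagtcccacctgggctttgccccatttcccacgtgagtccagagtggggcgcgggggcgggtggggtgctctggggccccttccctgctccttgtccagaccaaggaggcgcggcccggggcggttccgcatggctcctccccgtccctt
Gclm, chr3:122245307-122245556, plus strand: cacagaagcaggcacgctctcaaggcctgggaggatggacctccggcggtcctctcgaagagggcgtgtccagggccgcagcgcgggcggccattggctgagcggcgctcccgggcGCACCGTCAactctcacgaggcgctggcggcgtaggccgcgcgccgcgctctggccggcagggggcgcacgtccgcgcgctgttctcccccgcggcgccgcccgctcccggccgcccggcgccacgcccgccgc
Txnrd1, chr10:82858956-82859178, plus strand: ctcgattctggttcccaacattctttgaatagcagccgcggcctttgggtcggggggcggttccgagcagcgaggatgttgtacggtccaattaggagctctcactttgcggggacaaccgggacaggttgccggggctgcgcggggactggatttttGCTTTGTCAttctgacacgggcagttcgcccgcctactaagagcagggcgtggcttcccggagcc
Nfe2l2, chr2:75704664-75704913, minus strand: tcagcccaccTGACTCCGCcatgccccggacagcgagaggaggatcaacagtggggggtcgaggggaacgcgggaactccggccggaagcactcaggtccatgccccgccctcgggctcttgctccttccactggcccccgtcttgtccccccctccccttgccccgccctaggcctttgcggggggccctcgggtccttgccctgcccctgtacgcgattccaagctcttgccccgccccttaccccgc
Srxn1, chr2:152105274-152105515, plus strand: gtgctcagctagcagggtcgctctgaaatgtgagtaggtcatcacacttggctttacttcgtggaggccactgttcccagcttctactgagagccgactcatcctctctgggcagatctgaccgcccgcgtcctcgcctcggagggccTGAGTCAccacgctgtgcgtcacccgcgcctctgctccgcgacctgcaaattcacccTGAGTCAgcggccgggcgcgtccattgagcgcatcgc
Slc7a11, chr3:50443615-50443863, minus strand: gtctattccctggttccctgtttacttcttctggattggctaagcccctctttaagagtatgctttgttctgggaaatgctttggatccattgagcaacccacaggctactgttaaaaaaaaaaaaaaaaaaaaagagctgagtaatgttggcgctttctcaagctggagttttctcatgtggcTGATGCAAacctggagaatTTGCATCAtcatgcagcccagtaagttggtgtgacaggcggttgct
The core TGACNNNGC was present upstream of Slc13a3, Gclm, Txnrd1 and Nfe2l2, 4 of the 8 genes (4 of their 10 windows, with 1 of the 3 of Txnrd1), and in 10.2% of 32851 windows of the same length. In Slc13a3 it began 201 bases upstream of the RefSeq start site, in Gclm 134, in Txnrd1 92 and in Nfe2l2 240. Srxn1 held TGAGTCA at 102 and at 45 bases upstream, a motif found in 4.46% of windows, and Slc7a11 held TGATGNAA at 66 and, in the other orientation, at 47, a motif found in 3.45%. The search for the antioxidant response core took only C after TGA. Forms with G there were not counted, such as TGAGTCAGC, which the Srxn1 match at 45 bases upstream spells with its next letters. The gamma-activated motif TTCNNNGAA was present in Slc7a11 and Txnrd1 (3 of the 10 windows) and in 7.02% of windows, and the interferon-stimulated response element in none of the 8 and in 2.98% of windows. A kappaB motif was present in 6 of 8 genes (6 of 10 windows), Acod1 and Slc13a3 among them, and in 45.8% of windows. These matches describe letters in a window and say nothing of binding.

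Pam3CSK4 alone raised Acod1, Slc13a3, Slc7a11, Hmox1, Txnrd1 and Srxn1 and lowered Gclc and Nfe2l2, and the raised genes were also above Control when IFN-gamma followed. IFN-gamma alone raised Acod1 and lowered Slc7a11, Srxn1 and Gclc. Calls are edgeR quasi-likelihood tests with Benjamini-Hochberg adjustment over all 10938 tested genes at 0.05. Against Control, Pam3CSK4 changed 41.4% of all tested genes (20.0% higher, 21.4% lower), IFN-gamma 41.6% (20.0% higher, 21.6% lower) and the combined treatment 47.6% (23.4% higher, 24.2% lower). Read against these shares, the members stood at 6 higher and 2 lower with Pam3CSK4, 1 higher and 3 lower with IFN-gamma, and 6 higher and 1 lower with both. The median member moved by 0.88, -0.25 and 0.92 on the log2 scale, beside -0.04, -0.07 and -0.04 for all tested genes. Set against IFN-gamma alone, the combined treatment left 6 members higher and none lower, with a median of 1.23 beside -0.02 for all genes, 34.2% of which changed (17.0% higher, 17.2% lower). Gclc, Gclm, Nqo1 and Nfe2l2 were the 4 members without a call there. Against Pam3CSK4 alone, where 9.1% of all genes changed (6.06% higher, 3.04% lower), 3 members were higher and none lower. That count was 5 without Control replicate 3, a fit in which 18.3% of all genes were called. It was 1 without either Pam3CSK4 library (3.76% and 3.70% of all genes), without any one IFN-gamma library (8.12% to 8.56%), and without the combined group's replicate 1 or 2 (5.60% and 5.41%). The comparisons with Control share the Control libraries, and those with the combined group share its libraries.

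**Figure D1:**
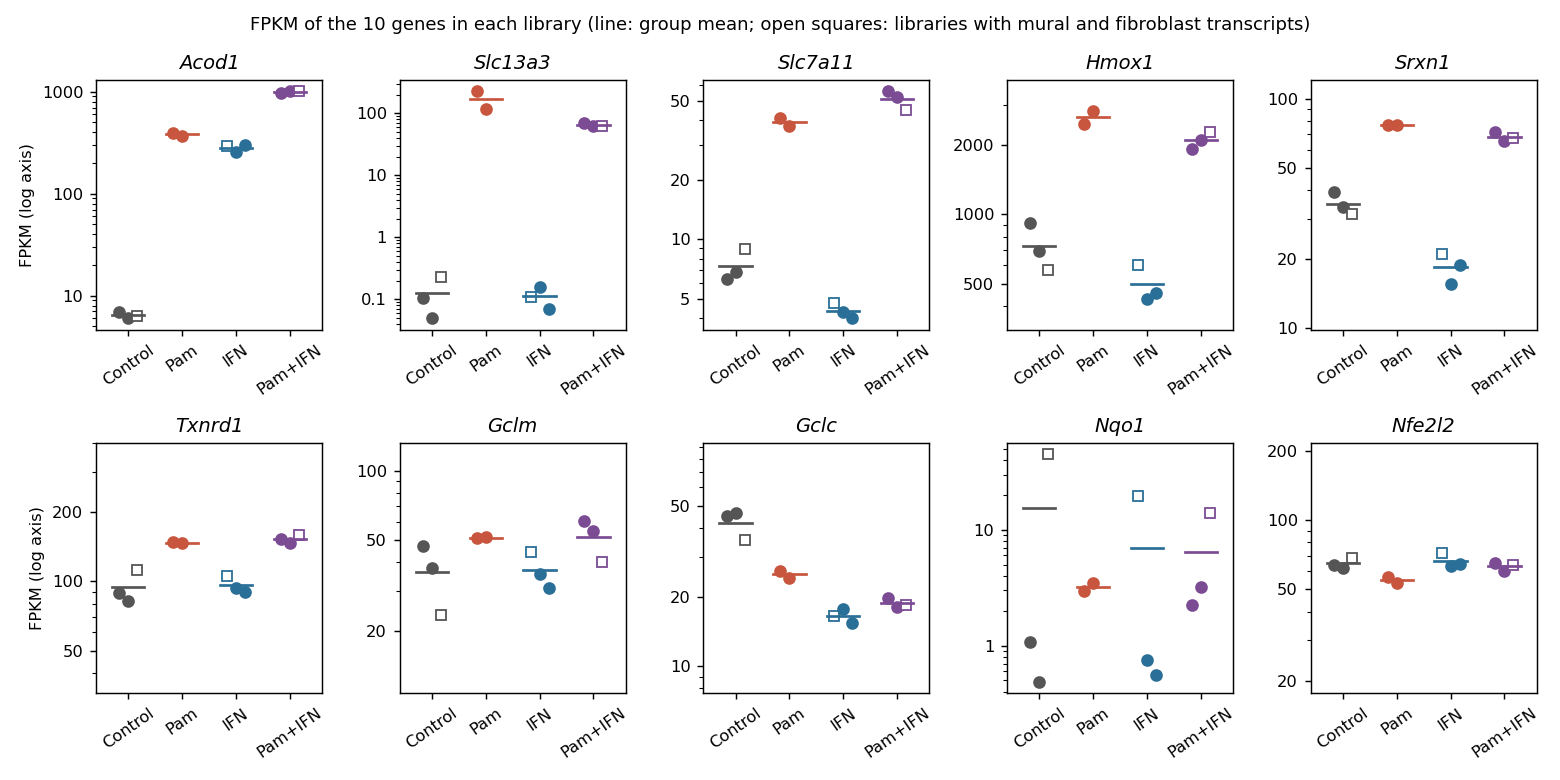
FPKM of each of the 10 genes in every library on a logarithmic axis, by group, with bars at the group means and open squares for the 3 stromal-positive libraries. Acod1 runs from 6.00 to 1015 FPKM, Slc13a3 is at most 0.227 FPKM in Control and IFN-gamma libraries and at least 61.7 in libraries given Pam3CSK4, and Nqo1 is spread widely within 3 of the groups.

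Acod1, on chromosome 14 at 103046977-103056573 of mm10, was at 6.97, 6.00 and 6.32 FPKM in the Control libraries. It reached 393 and 372 with Pam3CSK4, 293, 255 and 304 with IFN-gamma, and 967, 1014 and 1015 with both. No 2 groups overlapped, and the order was Control, IFN-gamma, Pam3CSK4, combined. The group means were 6.43 ± 0.496 (SD, n = 3), 383 ± 14.5 (n = 2), 284 ± 25.8 (n = 3) and 999 ± 27.7 FPKM (n = 3) in Control, Pam3CSK4, IFN-gamma and combined. The rise over Control was 5.88 ± 0.14 (SE) on the log2 scale with Pam3CSK4 (edgeR adjusted p = 2.3e-08), 5.56 ± 0.13 with IFN-gamma (6.8e-09) and 7.37 ± 0.14 with both (2.1e-09), which are 58.7-fold, 47.2-fold and 165-fold. The combined group lay above IFN-gamma alone by 1.81 ± 0.11 (edgeR adjusted p = 3.8e-06) and above Pam3CSK4 alone by 1.49 ± 0.13 (8.7e-05). In the latter difference IFN-gamma and time since the agonist cannot be told apart. Sums of the single effects gave different answers on the 2 scales. In FPKM the gains over Control were 376 with Pam3CSK4 and 277 with IFN-gamma, together 653, and 992 with both. On the log2 scale the gain that Pam3CSK4 gave with IFN-gamma minus the gain it gave without it was -4.07 ± 0.16 (edgeR interaction, adjusted p = 3.9e-06).

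Slc13a3, on chromosome 2 at 165405028-165473230, was near 0 without Pam3CSK4 and abundant with it. It had 12, 6 and 31 counts in the Control libraries (0.104, 0.0496 and 0.227 FPKM) and 14, 23 and 8 counts in the IFN-gamma libraries (0.110, 0.161 and 0.0693 FPKM). With Pam3CSK4 it had 31769 and 13634 counts (227 and 115 FPKM), and with both agents 10918, 9586 and 9369 counts (70.8, 61.7 and 62.8 FPKM). Control and IFN-gamma libraries overlapped, and every library given Pam3CSK4 lay far above them. The rise over Control was 10.37 ± 0.55 on the log2 scale with Pam3CSK4 (edgeR adjusted p = 1.7e-06) and 9.09 ± 0.52 with both (1.2e-06), and the combined group exceeded IFN-gamma alone by 9.12 ± 0.52 (2.4e-06). These folds rest on few counts in the low groups. IFN-gamma alone gave -0.04 ± 0.49 (edgeR adjusted p = 0.96). The level after both agents was below that after Pam3CSK4 alone in every library, at -1.28 ± 0.39, which did not pass the test (edgeR adjusted p = 0.074) and passed without the 3 stromal-positive libraries (-1.25, adjusted p = 0.021), and with all libraries by limma (-1.30, 0.0048), by DESeq2 (-1.29, 0.0025) and in an edgeR fit of those groups alone (-1.28, 0.019). That difference was called in 2 of the 11 fits that left out 1 library, with log2 values from -1.68 to -0.72. The 2 Pam3CSK4 libraries were themselves far apart.

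Slc7a11, the cystine importer on chromosome 3 at 49892526-50443614, went in opposite directions with the single agents. Its levels were 6.32, 6.83 and 8.94 FPKM in Control, 40.9 and 37.4 with Pam3CSK4, 4.77, 4.32 and 4.00 with IFN-gamma, and 55.8, 52.0 and 44.6 with both. The groups did not overlap, with IFN-gamma lowest and the combined group highest. Pam3CSK4 raised it by 2.40 ± 0.13 on the log2 scale (edgeR adjusted p = 1.8e-06) and IFN-gamma lowered it (-0.64 ± 0.11, 0.0018). With Pam3CSK4 first, IFN-gamma-treated cells were higher by 3.53 ± 0.13 (edgeR adjusted p = 2.2e-07), an 11.6-fold difference. That gain was larger than the one Pam3CSK4 gave without IFN-gamma, by 1.13 ± 0.17 (edgeR interaction, adjusted p = 0.0035). The combined group lay above Pam3CSK4 alone by 0.49 ± 0.13 (edgeR adjusted p = 0.047), a call kept in 3 of the 11 fits that left out 1 library and lost with RLE scaling, without the filter, with filterByExpr, with the replicate block and by limma (adjusted p from 0.053 to 0.13).

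The 2 subunits of glutamate-cysteine ligase, which use the imported cystine's cysteine to begin glutathione synthesis, did not move together. Gclc, the catalytic subunit on chromosome 9 at 77754535-77794485, was highest in Control at 44.9, 46.4 and 35.3 FPKM. It stood at 26.0 and 24.3 with Pam3CSK4, 16.6, 17.7 and 15.4 with IFN-gamma, and 19.8, 18.1 and 18.4 with both, so that the 4 groups did not overlap. It fell with Pam3CSK4 (-0.77 ± 0.16, edgeR adjusted p = 0.0038, and -0.76 with 0.054 in a fit of those groups alone), with IFN-gamma (-1.26 ± 0.14, 0.00012) and with both (-1.09 ± 0.14, 0.00019). The losses were smaller together than they would have been in sum, by 0.95 ± 0.21 (edgeR interaction, adjusted p = 0.017, and 0.081 without Pam3CSK4 replicate 2). Gclm, the modifier subunit on chromosome 3 at 122245557-122270732, was at 47.2, 37.7 and 23.6 FPKM in Control, 50.8 and 51.4 with Pam3CSK4, 44.6, 35.5 and 31.0 with IFN-gamma, and 60.4, 54.9 and 39.9 with both. The Control, IFN-gamma and combined ranges overlapped, as did those of Pam3CSK4 and combined, and Gclm passed none of the 6 tests (for Pam3CSK4 0.46 ± 0.30, edgeR adjusted p = 0.25). Control replicate 3 and the combined group's replicate 3, both stromal-positive, were the lowest of their groups, and the stromal-positive IFN-gamma replicate 1 was the highest of its group. Without the 3 stromal-positive libraries Gclm was higher by 0.49 with both agents against Control (edgeR adjusted p = 0.0071) and by 0.78 against IFN-gamma (0.00099), with an interaction of 0.58 (0.030). With all libraries, the value against Control for both agents passed by DESeq2 (0.61, adjusted p = 0.040) and with the replicate block (0.63, 0.015). In GENCODE M21 its exons share 296 bases with the antisense gene Gm17494, which had at most 121 counts in any library, and 244 with the pseudogene Gm6061, with at most 2.

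Hmox1, the heme-degrading enzyme on chromosome 8 at 75093591-75100596, was the most abundant of the 10 per unit of length. Control libraries held 914, 695 and 575 FPKM, Pam3CSK4 libraries 2486 and 2835, IFN-gamma libraries 605, 429 and 457, and combined libraries 1936, 2105 and 2288. Control and IFN-gamma overlapped, and both groups given Pam3CSK4 lay above every library without it. Pam3CSK4 raised Hmox1 by 1.84 ± 0.23 over Control (edgeR adjusted p = 0.00021), both agents by 1.61 ± 0.21 (0.00021), and Pam3CSK4 before IFN-gamma by 2.08 ± 0.21 over IFN-gamma alone (8.6e-05), a 4.23-fold difference. IFN-gamma alone gave -0.47 ± 0.21 (edgeR adjusted p = 0.096). That value passed the test without the 3 stromal-positive libraries (-0.79, edgeR adjusted p = 0.0019) and without Control replicate 3 only (-0.65, 0.0073). With all libraries it passed by limma (-0.54, adjusted p = 0.033) and by DESeq2 (-0.45, 0.049).

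Txnrd1 and Srxn1 serve the thioredoxin arm, the former reducing thioredoxin and the latter restoring over-oxidised peroxiredoxins. Txnrd1, on chromosome 10 at 82859206-82897724, was at 89.1, 82.3 and 112 FPKM in Control, 148 and 147 with Pam3CSK4, 106, 93.5 and 89.7 with IFN-gamma, and 152, 148 and 159 with both. The libraries given Pam3CSK4 lay above all others, and the ranges of Control and IFN-gamma overlapped, as did those of Pam3CSK4 and combined. Its rise was 0.64 ± 0.09 with Pam3CSK4 (edgeR adjusted p = 0.00061), 0.80 ± 0.09 with both (5.6e-05) and 0.66 ± 0.08 for the combined group over IFN-gamma (0.00034), while IFN-gamma alone gave 0.14 ± 0.08 (0.23). Srxn1, on chromosome 2 at 152105516-152111376, was at 39.1, 33.9 and 31.5 FPKM in Control, 76.7 and 76.6 with Pam3CSK4, 21.0, 15.5 and 18.9 with IFN-gamma, and 71.2, 65.1 and 67.5 with both, with no overlap between groups. Pam3CSK4 raised it by 1.12 ± 0.15 (edgeR adjusted p = 0.00036) and IFN-gamma lowered it (-0.82 ± 0.14, 0.0014), the pattern of opposite directions also seen for Slc7a11. After Pam3CSK4, IFN-gamma-treated cells were higher by 1.87 ± 0.14 (edgeR adjusted p = 1.4e-05), and the combined group differed from Pam3CSK4 alone by -0.07 ± 0.15 (0.85). The interaction of 0.75 ± 0.21 (edgeR adjusted p = 0.037) was kept in 2 of the 11 fits that left out 1 library, and was lost without the filter (adjusted p = 0.10) and with filterByExpr (0.053).

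**Figure D2:**
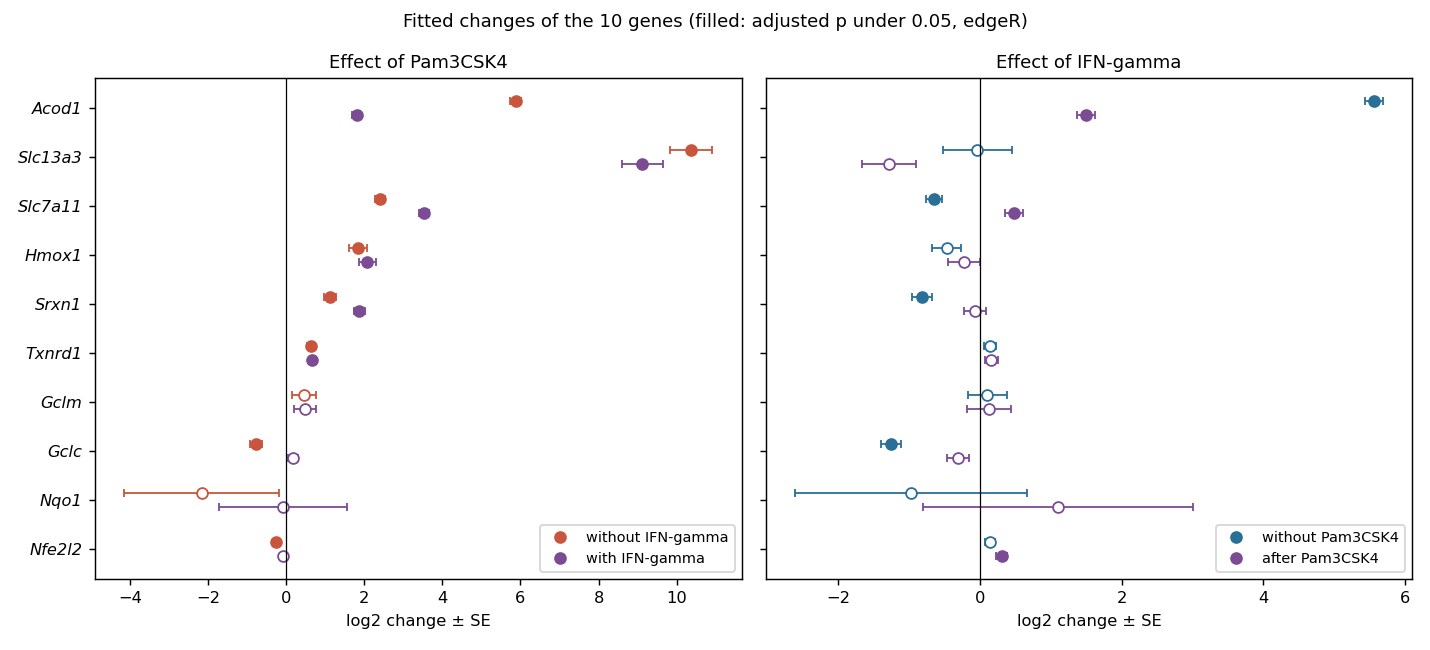
Log2 change with its SE for the 10 genes, on the left for Pam3CSK4 without and with IFN-gamma and on the right for IFN-gamma without and after Pam3CSK4, with filled points for edgeR adjusted p under 0.05 and open points otherwise. Slc13a3 and Acod1 show the largest changes with Pam3CSK4, at 10.37 and 5.88, and Nqo1 has the widest error, with SEs of 1.63 to 1.98.

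Nqo1, the quinone reductase on chromosome 8 at 107388225-107403206, passed no test with all libraries, and its values within a group were far apart. They were 1.07, 0.488 and 44.7 FPKM in Control, 2.96 and 3.48 with Pam3CSK4, 19.5, 0.758 and 0.554 with IFN-gamma, and 2.23, 3.23 and 13.8 with both. The high library in Control, IFN-gamma and combined was the stromal-positive one, in which the 13 mural cell and fibroblast markers averaged 4.88, 2.52 and 1.72 on the log2(FPKM + 1) scale against 0.414 to 0.754 elsewhere. With all libraries the change with Pam3CSK4 was -2.16 ± 1.98 (edgeR adjusted p = 0.41). Among the 8 other libraries Nqo1 ranged from 0.488 to 1.07 FPKM without Pam3CSK4 and from 2.23 to 3.48 with it, with no overlap. There it was higher by 1.98 ± 0.37 with Pam3CSK4 (edgeR adjusted p = 0.0027), by 1.86 with both (0.0036) and by 2.02 for the combined group over IFN-gamma (0.0035), while IFN-gamma alone gave -0.16 (0.79). These rest on 12 to 102 counts per library.

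**Figure D3:**
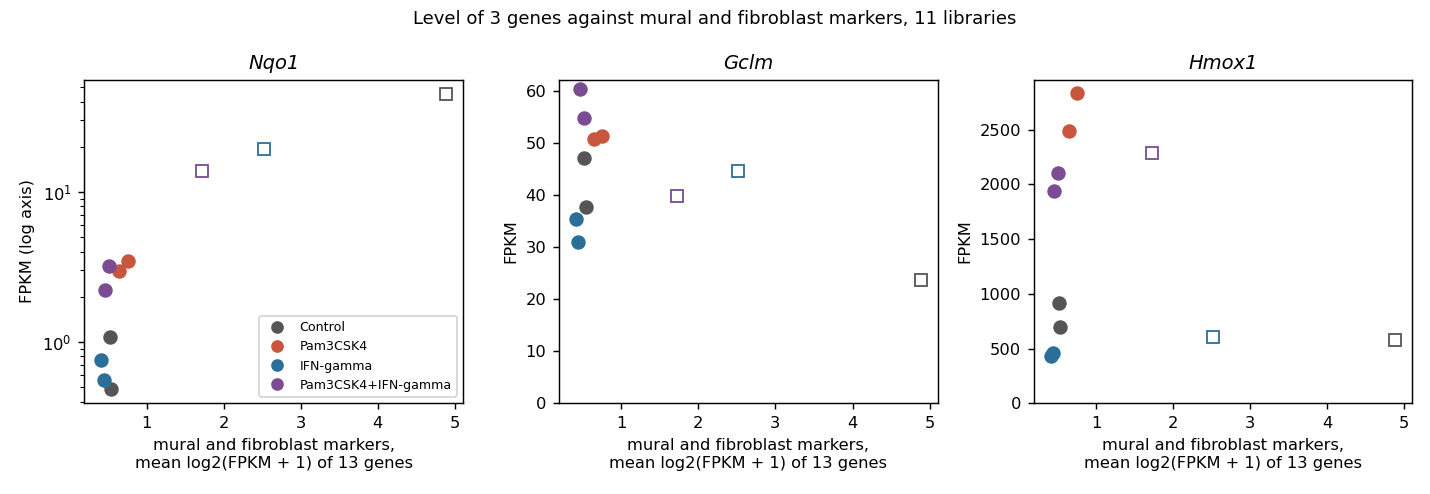
FPKM of Nqo1 (log axis), Gclm and Hmox1 (linear axes) in each library against the mean log2(FPKM + 1) of 13 mural cell and fibroblast markers, coloured by group, with open squares for the stromal-positive libraries. The 3 libraries with marker means of 4.88, 2.52 and 1.72 hold the 3 highest Nqo1 values, 44.7, 19.5 and 13.8 FPKM.

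Nfe2l2, the gene of NRF2 itself, on chromosome 2 at 75675513-75704641, varied little. It was at 63.9, 62.2 and 68.4 FPKM in Control, 56.4 and 53.4 with Pam3CSK4, 71.8, 63.5 and 64.7 with IFN-gamma, and 65.1, 60.1 and 63.9 with both. Pam3CSK4 libraries were the lowest and did not overlap any other group, and the other 3 groups overlapped one another. The fall with Pam3CSK4 was -0.25 ± 0.08 (edgeR adjusted p = 0.027), a 1.19-fold decrease, and was lost when either Pam3CSK4 library or Control replicate 1 or 2 was left out (adjusted p from 0.062 to 0.16). It was also lost without the filter on low values (-0.18, edgeR adjusted p = 0.28), with filterByExpr (-0.22, 0.051) and in a fit of those groups alone (-0.24, 0.20). IFN-gamma alone gave 0.14 ± 0.07 (edgeR adjusted p = 0.13, and 0.16 with adjusted p = 0.019 by DESeq2) and both agents 0.05 ± 0.07 (0.56). The combined group lay above Pam3CSK4 alone by 0.31 ± 0.08 (edgeR adjusted p = 0.040), a call kept in 1 of the 11 fits that left out 1 library and lost without the filter, with the replicate block and by limma (adjusted p from 0.087 to 0.16).

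The effect of Pam3CSK4 differed with and without IFN-gamma for 4 of the 10 genes, higher in 3 (Slc7a11, Gclc and Srxn1) and lower in Acod1, beside 16.0% of all tested genes (8.01% in each direction). Without Pam3CSK4 replicate 2 the count was 2, beside 6.07% of all genes. For Hmox1 the interaction was 0.24 ± 0.31 (edgeR adjusted p = 0.63), for Txnrd1 0.03 ± 0.13 (0.91) and for Slc13a3 -1.25 ± 0.63 (0.21, and 0.017 by limma). Among the 10, Acod1, Slc7a11 and Nfe2l2 were the 3 called between the combined group and Pam3CSK4 alone.

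The wider pathway was described with 9 lists of 114 genes, of which 102 were tested. With Pam3CSK4, 32 rose and 17 fell (48.0% changed, beside 41.4% of all genes), with IFN-gamma 27 rose and 24 fell (50.0%, beside 41.6%), and with both 38 rose and 22 fell (58.8%, beside 47.6%). For the combined group, 26 were higher and 19 lower than with IFN-gamma alone (44.1%, beside 34.2%), and 7 higher and 4 lower than with Pam3CSK4 alone (10.8%, beside 9.1%). With the 3 stromal-positive libraries left out, more genes were called in the lists and among all genes alike. The counts were then 44 higher and 16 lower with Pam3CSK4 (beside 26.3% and 27.4% of all genes), 29 and 30 with IFN-gamma (22.9% and 24.3%) and 50 and 21 with both (27.0% and 26.3%). They were 36 and 22 for the combined group against IFN-gamma (20.6% and 19.6%), and 14 and 15 against Pam3CSK4 (11.0% and 8.43%). In the last comparison 27 were called without Control replicate 3 (18.3% of all genes), 6 without Pam3CSK4 replicate 1 (3.76%) and 5 without Pam3CSK4 replicate 2 (3.70%). Among the 12 genes that were not tested, the succinate receptor Sucnr1, the oxoglutarate receptor Oxgr1 and the organic anion transporters Slc22a6 and Slc22a8 had 0 counts in every library. The other transporters of the Slc13 family, Slc13a1, Slc13a2, Slc13a4 and Slc13a5, reached at most 0.160 FPKM in any library, beside 227 FPKM for Slc13a3.

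**Figure D4:**
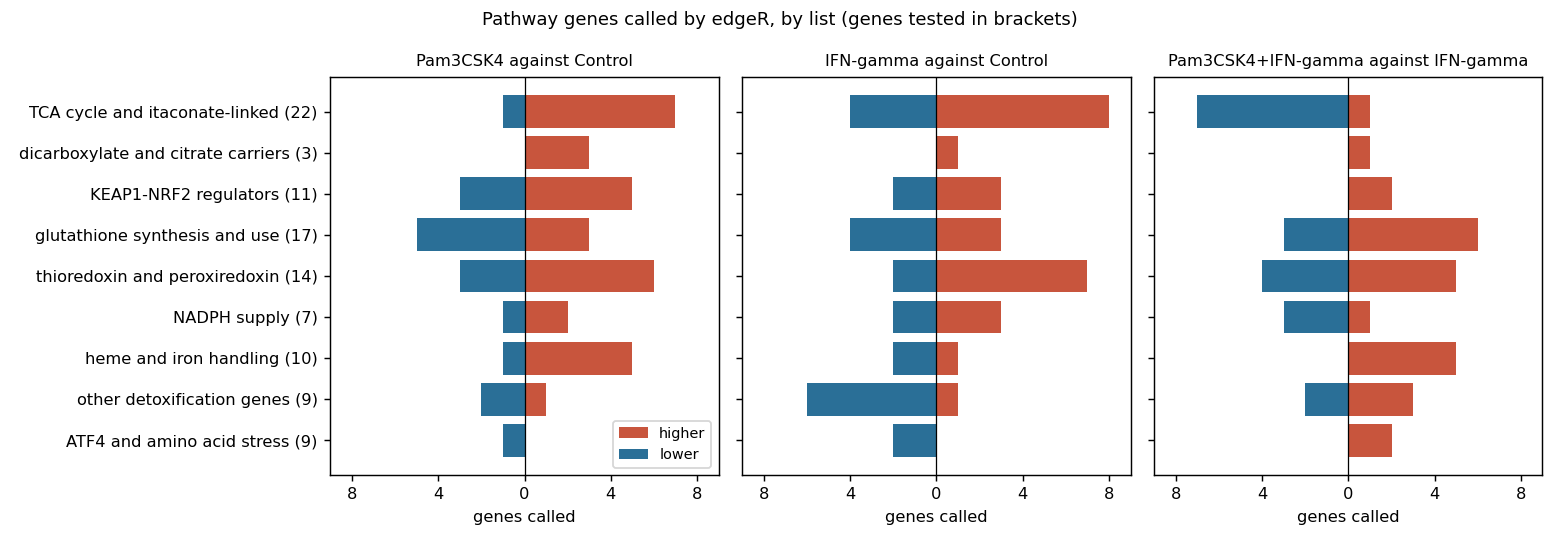
Number of tested genes of each of the 9 lists that were higher or lower (edgeR adjusted p under 0.05) for each single agent against Control and for the combined group against IFN-gamma. With Pam3CSK4 the heme and iron list has 5 of 10 higher and 1 lower, and with IFN-gamma the list of other detoxification genes has 6 of 9 lower and 1 higher. Among all tested genes 20.0% were higher and 21.4% lower with Pam3CSK4, and 20.0% and 21.6% with IFN-gamma.

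Of 22 tested citric acid cycle and itaconate-linked genes, 7 rose and 1 fell with Pam3CSK4 (median 0.09), and 8 rose and 4 fell with IFN-gamma (median 0.21). Among all genes 20.0% were higher and 21.4% lower with Pam3CSK4, and 20.0% and 21.6% with IFN-gamma. The enzymes that rose with both single agents included citrate synthase Cs (0.47 ± 0.09 and 0.56 ± 0.09) and malate dehydrogenase Mdh2 (0.68 ± 0.10 and 0.46 ± 0.09). Isocitrate dehydrogenase Idh2 fell with IFN-gamma (-1.03 ± 0.19, edgeR adjusted p = 0.0023). Nfkbiz, which encodes IkappaB-zeta, a factor whose induction itaconate derivatives are known to limit, rose from 8.10 ± 2.82 FPKM in Control (SD, n = 3) to 90.5 ± 8.29 with Pam3CSK4 (n = 2) and fell to 2.69 ± 0.460 with IFN-gamma (n = 3). It was at 50.0 ± 10.5 FPKM with both (n = 3), 4.21 ± 0.24 above IFN-gamma alone on the log2 scale (edgeR adjusted p = 2.6e-06). In that comparison the other 7 called genes of the list were all lower, beside 17.0% higher and 17.2% lower among all genes. Among the 7 was Suclg1, a subunit of the enzyme that makes succinate (-0.66 ± 0.10, edgeR adjusted p = 0.0010). Of 3 tested carriers the mitochondrial dicarboxylate carrier Slc25a10 moved most, from 10.6 ± 1.72 FPKM in Control to 74.2 ± 7.42 with Pam3CSK4, 10.1 ± 0.698 with IFN-gamma and 49.6 ± 5.95 with both, a gain of 2.78 ± 0.19 with Pam3CSK4 (edgeR adjusted p = 6.6e-06).

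Among 11 tested regulators of NRF2, 5 rose and 3 fell with Pam3CSK4 (median 0.41), and 3 rose and 2 fell with IFN-gamma (median 0.01), against the same shares over all genes. Sqstm1, the autophagy receptor p62 that binds KEAP1, went from 64.0 ± 3.76 FPKM in Control to 164 ± 38.3 with Pam3CSK4, 51.8 ± 1.90 with IFN-gamma and 134 ± 15.0 with both. Its rise was 1.34 ± 0.16 with Pam3CSK4 (edgeR adjusted p = 0.00015) and 1.36 ± 0.14 for the combined group over IFN-gamma (0.00010). Maff, a small MAF partner, rose by 1.55 ± 0.11 with Pam3CSK4 (edgeR adjusted p = 9.6e-06) and stood at 31.6 ± 0.910 FPKM with both agents, beside 79.3 ± 6.75 with Pam3CSK4 and 26.9 ± 3.23 in Control (interaction -1.36 ± 0.15, 0.00080). Bach1, a repressor that competes with NRF2, fell with Pam3CSK4 from 14.5 ± 1.59 to 7.55 ± 0.548 FPKM (-0.97 ± 0.16, edgeR adjusted p = 0.0013). With both agents it stood at 10.8 ± 0.635 FPKM, and was called neither against Control (-0.34 ± 0.14, edgeR adjusted p = 0.071) nor against IFN-gamma (-0.36 ± 0.14, 0.080). The combined group lay above Pam3CSK4 alone by 0.62 ± 0.16 (edgeR adjusted p = 0.042). Keap1 rose slightly with each agent, by 0.41 ± 0.11 with Pam3CSK4 (edgeR adjusted p = 0.019) and 0.51 ± 0.10 with IFN-gamma (0.0038). Mafg gave 0.46 ± 0.33 with Pam3CSK4 (edgeR adjusted p = 0.30).

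The glutathione and thioredoxin lists held genes that moved in both directions. Of 17 tested glutathione genes 3 rose and 5 fell with Pam3CSK4 (median -0.22), beside 20.0% higher and 21.4% lower among all genes. Without the 3 stromal-positive libraries 6 rose and 5 fell, beside 26.3% and 27.4%. In the combined group 6 were higher and 3 lower than with IFN-gamma (median 0.33), beside 17.0% and 17.2% of all genes. Gstm1, a glutathione transferase, rose by 2.56 ± 0.26 with Pam3CSK4 (edgeR adjusted p = 6.8e-05), fell with IFN-gamma (-1.21 ± 0.24, 0.0034) and was 2.96 ± 0.25 higher with both than with IFN-gamma (3.1e-05). Glutathione reductase Gsr rose by 1.27 ± 0.16 with Pam3CSK4 (edgeR adjusted p = 0.00025) and glutaredoxin Glrx by 1.80 ± 0.14 with Pam3CSK4 and 1.92 ± 0.13 with IFN-gamma (1.5e-05 and 5.8e-06). Of 14 thioredoxin and peroxiredoxin genes 6 rose and 3 fell with Pam3CSK4 (median 0.32), and 7 rose and 2 fell with IFN-gamma (median 0.26), beside the shares of 20.0% and 21.4%, and 20.0% and 21.6%, of all genes. Prdx5, a peroxiredoxin, climbed from 72.9 ± 9.86 FPKM to 357 ± 35.9 with Pam3CSK4, 285 ± 32.4 with IFN-gamma and 523 ± 31.8 with both. Prdx6 rose by 2.14 ± 0.28 with Pam3CSK4 (edgeR adjusted p = 0.00033), and thioredoxin Txn1 by 1.44 ± 0.12 with Pam3CSK4 and 1.59 ± 0.11 with IFN-gamma (2.2e-05 and 7.0e-06). Txnip, the thioredoxin-binding inhibitor, was lower in the combined group than with IFN-gamma alone (-1.57 ± 0.08, edgeR adjusted p = 1.9e-06). Gstm1 belongs to a family of similar genes, and Txn1, Prdx1, Prdx6 and Fth1 have close copies in the genome. How reads shared between copies were counted is not given in the sources used here, so their values are uncertain.

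Of 10 heme and iron genes, 5 rose and 1 fell with Pam3CSK4 (median 0.61, beside 20.0% higher and 21.4% lower among all genes). With IFN-gamma 1 rose and 2 fell (median -0.07, beside 20.0% and 21.6%). Without the 3 stromal-positive libraries 1 rose and 5 fell with IFN-gamma (beside 22.9% and 24.3%). In the combined group 5 were higher and none lower than with IFN-gamma (median 0.55, beside 17.0% higher and 17.2% lower among all genes). Ferritin heavy chain Fth1, which stores the iron that heme breakdown frees, rose by 1.24 ± 0.26 with Pam3CSK4 (edgeR adjusted p = 0.0041) and was 1.93 ± 0.24 higher with both than with IFN-gamma (0.00029). The heme transporter Slc48a1 rose by 0.97 ± 0.17 with Pam3CSK4 (edgeR adjusted p = 0.0017). The iron exporter Slc40a1 fell with Pam3CSK4 (-1.15 ± 0.29, edgeR adjusted p = 0.012, and 0.092 without Pam3CSK4 replicate 2) and with IFN-gamma (-1.47 ± 0.26, 0.0017). Among 7 NADPH-supplying genes 2 rose and 1 fell with Pam3CSK4 (beside 20.0% and 21.4% of all genes). With IFN-gamma 3 of them rose and 2 fell (beside 20.0% and 21.6%). Malic enzyme Me1 was higher by 0.93 ± 0.20 with Pam3CSK4 (edgeR adjusted p = 0.0057) and by 1.20 ± 0.19 in the combined group over IFN-gamma (0.0011). Of 9 other detoxification genes 6 fell and 1 rose with IFN-gamma (median -0.74, beside 21.6% lower and 20.0% higher among all genes), including catalase Cat (-1.14 ± 0.19, edgeR adjusted p = 0.0012) and carbonyl reductase Cbr3 (-1.14 ± 0.15, 0.00033). Epoxide hydrolase Ephx1 fell with Pam3CSK4 (-1.99 ± 0.21, edgeR adjusted p = 7.8e-05) and with IFN-gamma (-0.74 ± 0.17, 0.0077), and was lower still with both than with IFN-gamma (-2.28 ± 0.18, 2.0e-05). In the combined group 3 of the 9 were higher and 2 lower than with IFN-gamma (beside 17.0% and 17.2% of all genes). Without the 3 stromal-positive libraries they were 6 and 2 (20.6% and 19.6%). With Pam3CSK4 1 rose and 2 fell (20.0% and 21.4%), and 3 and 2 without those libraries (26.3% and 27.4%). The efflux pump Abcc1 rose with Pam3CSK4 (0.94 ± 0.15, edgeR adjusted p = 0.00088).

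Because Slc7a11 is also a target of the amino acid stress factor ATF4, 9 genes of that response were listed. None rose and 1 fell with Pam3CSK4 (beside 20.0% and 21.4% of all genes), and none rose and 2 fell with IFN-gamma (20.0% and 21.6%). In the combined group 2 were higher and none lower than with IFN-gamma (17.0% and 17.2%). With the 3 stromal-positive libraries left out these counts became 5 higher and 1 lower (beside 26.3% and 27.4% of all genes), 1 and 2 (22.9% and 24.3%), and 5 and 0 (20.6% and 19.6%). The serine synthesis enzyme Psat1 fell from 74.0 ± 2.73 FPKM in Control to 24.0 ± 0.857 with Pam3CSK4, 25.0 ± 4.58 with IFN-gamma and 21.8 ± 3.20 with both (with Pam3CSK4 -1.64 ± 0.17, edgeR adjusted p = 6.8e-05). Ddit3, a stress-induced transcription factor, was 0.90 ± 0.19 higher in the combined group than with IFN-gamma (edgeR adjusted p = 0.0064), and Atf4 itself 0.32 ± 0.10 higher (0.030), a call lost in 6 of the 11 fits that left out 1 library.

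The effect of Pam3CSK4 with IFN-gamma differed from its effect without it for 26 of the 102 genes, 9 higher and 17 lower (25.5%, beside 16.0% of all genes), and for 45 (19 higher, 26 lower) without the 3 stromal-positive libraries, beside 28.3% of all genes. The count was 7 without Pam3CSK4 replicate 2 (6.07% of all genes), 13 without Pam3CSK4 replicate 1 (9.58%) and 41 without Control replicate 3 (29.5%). It was 17 without IFN-gamma replicate 3 (10.7%), and 14 and 15 without the combined group's replicates 1 and 2 (9.08% and 9.62%). Of the 22 tested citric acid cycle and itaconate-linked genes 6 were lower and none higher, beside 8.01% of all genes in each direction. Without the 3 stromal-positive libraries 9 were lower and none higher, beside 13.7% and 14.6%. Glrx (-1.51 ± 0.19, edgeR adjusted p = 0.0013), Txn1 (-1.44 ± 0.16, 0.00091) and Prdx5 (-1.40 ± 0.23, 0.0044), which each agent raised alone, were lower in the interaction, as was Acod1. Psat1 (1.44 ± 0.22, edgeR adjusted p = 0.0031), which each agent lowered alone, was higher, as was Gclc.

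The genes whose levels followed the members most closely were ranked by Pearson's r of log2(FPKM + 1) over the 11 libraries among 6702 genes, which share groups and libraries, so the r values are descriptions. For Acod1 they were the interferon-induced Isg15 (0.996), Prdx5 (0.994) and Ube2l6 (0.993), which adds the ISG15 protein to its targets. Isg15 went from 11.7 FPKM on average in Control to 140 with Pam3CSK4, 124 with IFN-gamma and 267 with both. For Slc13a3 they were Zfp811 (0.998), Ppfia3 (0.997) and Lad1 (0.997), of which Lad1 went from 0.147 FPKM in Control and 0.0514 with IFN-gamma to 52.3 with Pam3CSK4 and 28.9 with both. For Nqo1 they were Serpinf1 (0.976), Timp1 (0.973) and Lif (0.967), the first of which averaged 33.5 FPKM in Control, 10.4 with IFN-gamma, 2.73 with Pam3CSK4 and 3.19 with both. Nqo1 was at 44.7, 19.5 and 13.8 FPKM in the 3 stromal-positive libraries and at most 3.48 elsewhere, so these r values rest largely on those libraries. The means of Control, IFN-gamma and the combined group each include 1 of them. For Gclm they were Dcaf12 (0.939), the metal transporter Slc11a1 (0.867) and Ap5b1 (0.859).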

How the data were processed

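RNA-seq libraries of cultured microglia, 11 in 4 groups, were grouped by their sample titles, and columns were matched to samples by the number in the description label. The deposited table gives counts per gene, per the file headers, together with FPKM, which is the count divided by a gene constant and the library total (6617 genes with over 200 counts, largest relative deviation 2.82e-06). TopHat2 2.1.0, Cufflinks 2.1.1, Cuffdiff and mm10 stand in the submitters' processing notes with no role, with counter, annotation and strand use not given in the sources used here. Genes with at least 1 FPKM in at least 2 libraries (10938 of 34745) entered edgeR 4.0.16 (R 4.3.3) with TMM scaling and a quasi-likelihood fit of 4 group means over all 11 libraries. SEs were obtained as the size of the log2 change over the root of the F statistic. The interaction is the effect of Pam3CSK4 with IFN-gamma minus its effect without it. P-values were adjusted by Benjamini-Hochberg with a threshold of 0.05, and the fit was tested on simulated counts. Alternatives were RLE scaling, no filter, filterByExpr, DESeq2 1.42.0, limma 3.58.1 on log2(FPKM + 1), a replicate block, a fit of the compared groups alone, and leaving out single libraries or the 3 stromal-positive ones.

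Members and lists were chosen with earlier results of these data known. All members were named, together with Keap1, Bach1, Mafg and Sqstm1. From each list the rule named up to 3 called genes with the largest change and a group mean of at least 5 FPKM, in 4 of the 6 comparisons, and other genes called in them were named beside these after their values were seen. Replicates differed beyond counting noise (chi-square per gene 15.4 to 157). Coordinates are those of the deposited table, in mm10. Some genes counted in the lists are not reported here by name.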

Additional observations from a re-analysis of the deposited data

Results flagged for a closer look

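The 22 genes listed here, as log2 differences, are members and pathway genes that passed the edgeR interaction test (adjusted p under 0.05). For each, the effect of Pam3CSK4 in cells that then received IFN-gamma differed from its effect in cells without IFN-gamma. Other pathway genes also passed, among them citrate synthase Cs (-0.60, edgeR adjusted p = 0.014). Of the 22, 4 were among the 10 genes described first, Acod1 at -4.07, Slc7a11 at 1.13, Gclc at 0.95 and Srxn1 at 0.75. Among all tested genes 16.0% passed this test.

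The other 18 were pathway genes. In the citric acid cycle the value was -0.53 for Ogdh, -0.65 for Suclg1, -0.46 for Sdhd and -0.66 for Mdh2, and for the oxoglutarate carrier Slc25a11 it was -0.59. Among regulators Rbx1, a subunit of the ubiquitin ligase that KEAP1 serves, was at -0.57 and Maff at -1.36. Glrx was at -1.51, Txn1 at -1.44, Prdx5 at -1.40, Txnip at -0.57 and the transketolase Tkt at -0.78. Differences above 0 were found for Mgst1 (1.05), Sesn1 (0.82), Fech (0.53), Cbr3 (0.94), Psat1 (1.44) and Phgdh (2.39). Of the 16 genes the rule named for this comparison, 5 (Glrx, Maff, Prdx5, Psat1 and Txn1) kept the call in every fit that left out 1 library. Phgdh was at 17.8 ± 14.8 FPKM in Control (SD, n = 3).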

How the results depend on the processing

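Among the members, 26 of 32 calls were kept under every alternative, and of 1124 member values under alternatives 46 lost the call, 22 gained it and 46 changed sign, none of the latter among called values. The share of all genes called moved too. Between the combined group and Pam3CSK4 alone it was 9.1% in the main fit, 3.24% with no filter and 6.62% with the replicate block. There it was 21.2% in a fit of those groups alone, 19.4% without the 3 stromal-positive libraries, 12.5% with limma and 14.4% with DESeq2. For the interaction it was 16.0% in the main fit, 4.76% with no filter and 28.3% without the 3 libraries. The number of members called between the combined group and Pam3CSK4 alone went from 3 to 1 with no filter, to 1 with a replicate block, to 5 in a fit of those groups alone, and from 1 to 5 when 1 library was left out. The number of pathway genes called there went from 11 to 35 in a fit of those groups alone, 29 without the 3 stromal-positive libraries, 17 with limma, 19 with DESeq2, and 5 to 27 when 1 library was left out. For the interaction, members called went from 4 to between 2 and 4 when 1 library was left out, and pathway genes from 26 to 13 with no filter, 45 without the 3 libraries, and 7 to 41 when 1 library was left out.

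Sign changes concerned values near 0 or Nqo1, and the cause was not tested. With Pam3CSK4 against Control, Nqo1 was 0.39 with the replicate block, 1.98 without the 3 libraries, and -2.73 to 1.98 leaving out 1 library. With IFN-gamma against Control, Slc13a3 was 0.0307 with no filter, 0.0222 with the block, 0.70 without the 3 libraries and -0.39 to 0.64 leaving out 1 library, Nqo1 was 0.79 with the block and -4.31 to 3.17 leaving out 1, and Gclm was -0.29 without the 3 libraries and -0.16 to 0.37 leaving out 1. With both against Control, Nqo1 was 0.13 with the block, 1.86 without the 3 libraries, 0.18 with limma and -2.29 to 3.08 leaving out 1, and Nfe2l2 was -0.0396 with limma. For the combined group against IFN-gamma, Nqo1 was 2.02 without the 3 libraries, 0.62 with limma and -1.30 to 3.25 leaving out 1. Against Pam3CSK4, Nqo1 was -0.26 with the block, -0.12 without the 3 libraries and -0.12 to 1.51 leaving out 1, and Gclm was -0.00342 with limma. In the interaction, Nqo1 was -1.05 with the block and -2.07 to 5.41 leaving out 1. Gclm was -0.00695 with RLE scaling, -0.0237 with no filter, -0.00681 with filterByExpr, -0.0731 with limma, -0.00700 with DESeq2 and -0.24 to 0.28 leaving out 1. Txnrd1 was -0.0254 with no filter, -0.00544 with filterByExpr, -0.0208 without the 3 libraries and -0.0510 to 0.0823 leaving out 1.

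Whether replicate numbers pair the libraries was left undecided (7 of 15 same-number pairs correlated above 0.1, range -0.725 to 0.729, against -0.749 to 0.817 for 30 pairs of different numbers). The highest correlations, 0.817, 0.792 and 0.729, were those between the 3 stromal-positive libraries, which could hide a pairing in this check. RLE scaling moved the median of all genes by at most 0.0236. With 2 libraries, the Pam3CSK4 group limits the precision of each comparison that uses it.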
